A study of Mus musculus with 12 samples.

Results

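A set of 3 secreted ribonucleases of the mouse gut was followed through RNA sequencing of gut epithelial cells: Ang, which encodes angiogenin, Rnase4, which encodes RNase 4, and Ang4, which encodes angiogenin 4. The 3 genes were chosen by name, with the genotype difference of these same libraries known, from a table of 14244 gene rows, and all 3 had a row. The libraries came from 5 wild-type (WT) mice and 7 Chd8L+/- mice, all C57BL/6 male littermates 8 weeks old, with 1 library per mouse. The Chd8L+/- mice carried in every cell of the body 1 Chd8 allele that lacks exons 11 to 13, which removes the large isoform of the chromatin remodeler CHD8, so the deletion was not limited to the gut epithelium. Poly(A) RNA was read as single-end reads of 75 bases, and the values were read counts per gene divided by a size factor of each library, called normalized counts here. Between 15691662 and 20761315 reads per library had been counted on genes.

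Angiogenin and RNase 4 belong to the vertebrate-specific family of small secreted enzymes named after pancreatic ribonuclease A. Angiogenin is known for stimulating blood vessel growth, for entering the nucleolus of target cells and for cutting tRNAs under stress, and the cytosolic ribonuclease inhibitor RNH1 binds it very tightly. Ang and Rnase4 are an unusual pair, since they are known to share promoters and noncoding first exons, and each protein is encoded in a single downstream exon of its own. Ang4 is one of several further angiogenin genes that arose in rodents, and it is known in the mouse intestine as an antimicrobial protein released by Paneth cells and goblet cells.

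The 3 genes lie on chromosome 14, the chromosome that also holds Chd8. On GRCm38 (mm10), Ang (ENSMUSG00000072115.11) spans 51091150 to 51102009 on the plus strand, and Rnase4 (ENSMUSG00000021876.15) spans 51091077 to 51106151 on the same strand. Ang4 (ENSMUSG00000060615.5) spans 51763878 to 51773590 on the minus strand, and its span begins 672.7 kb beyond that of Ang. The gap to Chd8 was 1.096 Mb for Ang, 1.092 Mb for Rnase4 and 0.4246 Mb for Ang4. Each gene has transcripts of 2 exons in GENCODE release M21. The coding sequence lies wholly in the last exon, from 51101404 to 51101838 for Ang, from 51104821 to 51105264 for Rnase4 and from 51764058 to 51764489 for Ang4.

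The first exons of Ang and Rnase4 overlap at both of their starts, so some reads cannot be given to one of the genes by position. They had 219 exon bases in common, 18.2% of the 1202 exon bases of Ang and 13.4% of the 1637 exon bases of Rnase4. Of the 1127 distinct stretches of 75 bases, the read length, in Ang transcripts, 92 (8.16%) also occurred in another gene, 73 of them in Rnase4 and 19 in Ang2. In Rnase4 it was 73 of 1562 (4.67%), and in Ang4 it was 5 of 635 (0.787%), all of them in Ang5. The coding sequences were 85.4% identical over aligned bases between Ang and Ang4, 62.9% between Ang and Rnase4 and 68.1% between Rnase4 and Ang4. The methods name neither a counting program nor a strand setting, so how such reads were assigned is not known.

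**Figure D1:**
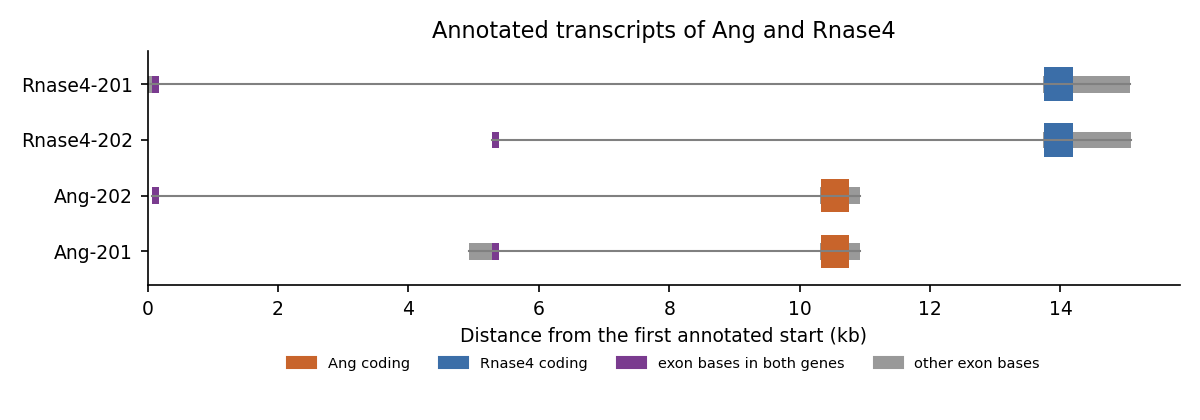
Annotated transcripts of Ang and Rnase4 (GENCODE M21) by distance in kb from the first annotated start. Tall bars are coding bases (Ang orange, Rnase4 blue), purple bars are the 219 exon bases found in both genes, grey bars are other exon bases and lines are introns; the shared bases sit only in the noncoding first exons and the coding exons do not overlap.

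The promoter sequences are shown because Ang and Rnase4 have 1 window in common, while Ang4 has its own. The windows were not aligned with each other, so how alike they are was not measured. RefSeq entries matched all 3 symbols and gave 3 distinct windows on GRCm38.p6. The 250 bases before each start are printed 5′ to 3′ on the gene's own strand, with motif matches in capitals.
Upstream start (RefSeq Ang and Rnase4), chr14:51090827-51091076, plus strand: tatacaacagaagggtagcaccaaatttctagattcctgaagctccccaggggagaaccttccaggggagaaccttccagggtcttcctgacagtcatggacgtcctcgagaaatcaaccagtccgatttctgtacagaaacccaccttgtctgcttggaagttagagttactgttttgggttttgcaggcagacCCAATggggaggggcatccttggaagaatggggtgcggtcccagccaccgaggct
Downstream start (RefSeq Rnase4), chr14:51095750-51095999, plus strand: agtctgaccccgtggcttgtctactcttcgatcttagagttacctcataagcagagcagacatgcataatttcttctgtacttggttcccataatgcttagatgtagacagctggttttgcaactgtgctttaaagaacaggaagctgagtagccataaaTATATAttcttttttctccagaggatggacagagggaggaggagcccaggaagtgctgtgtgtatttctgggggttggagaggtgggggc
Ang4, chr14:51773591-51773840, minus strand: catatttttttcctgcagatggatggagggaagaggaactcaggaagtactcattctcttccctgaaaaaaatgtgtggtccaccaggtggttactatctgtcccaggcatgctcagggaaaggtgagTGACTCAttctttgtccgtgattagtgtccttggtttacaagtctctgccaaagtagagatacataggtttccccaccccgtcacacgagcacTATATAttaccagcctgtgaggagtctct
Starts are those of RefSeq, and GENCODE places some of them differently. Its upstream Rnase4 transcript begins right after the upstream window, at 51091077, but the Ang transcript only at 51091150. The start that follows the downstream window, at 51096000, is that of an Ang transcript there, and the Rnase4 transcript begins at 51096359. The capitals mark CCAAT in the shared upstream window, where it begins 55 bases before the RefSeq start, TATATA in the downstream window, 90 bases before it, and TATATA and TGACTCA in the Ang4 window, 29 and 122 bases before it. Motifs were searched on both strands in the same 250 bases of 32851 mouse promoters, of which 33.8% hold CCAAT, 5.25% hold TATATA and 4.46% hold TGACTCA (the AP-1 motif). None of the 3 windows held GGGCGG (the GC box, in 32.7% of promoters) or TATAAA (12.4%). TATATA was the only motif found in more than 1 of the 3 windows. The GC content was 52.4% in the shared window, 46% in the downstream window and 46.4% in the Ang4 window, beside a median of 52.4% over all promoters.

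The 3 genes differed widely in level. In reads per exon length and library size (RPKM, computed here from the recovered reads), Ang had 9.92 ± 1.72 (SD, n = 5) in WT mice and 5.70 ± 1.35 (SD, n = 7) in Chd8L+/- mice. Rnase4 had 38.7 ± 6.22 and 36.8 ± 6.29 on the same scale. Ang4 had 1865 ± 854 and 681 ± 720.0. By the mean of this per-length level over all 12 libraries, Ang4 ranked 32 of the 14141 genes that had a length, Rnase4 ranked 1117 and Ang ranked 4492. Ang4 stood far above the other genes in every library. Ang rested on 79 to 302 reads per library, Rnase4 on 820 to 1414 and Ang4 on 2626 to 37232, so counting error weighed most on Ang.

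Before the genotypes are compared, WT replicate 2 has to be set apart. On the first principal component over all tested genes, which held 39.7% of the variance, it lay at 41.0, among the Chd8L+/- libraries (0.26 to 42.7) and away from the other 4 WT libraries (-67.5 to -26.2). It also had the lowest value of Ang, Rnase4 and Ang4 among the WT libraries, and each difference below is therefore given with and without it. Chd8 itself averaged 953 ± 85.5 in the 5 WT and 1297 ± 123 (SD) in the 7 Chd8L+/- libraries. On the log2(normalized count + 1) scale it was higher by 0.44 ± 0.10 (standard error, limma adjusted p = 0.121), and by 0.48 without WT replicate 2. All 7 Chd8L+/- libraries lay above every WT library, as in 0.242% of all tested genes. The values are per gene, so they do not show the deletion of exons 11 to 13. By real-time PCR the study found these exons lower and the first exon higher.

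Ang was lower in Chd8L+/- libraries, and the groups did not overlap. The WT libraries, replicates 1 to 5, had 225.8, 174.5, 194.6, 299.5 and 254.5 normalized counts. The Chd8L+/- libraries ran from 73.8 through a median of 126 to 156. All 7 Chd8L+/- libraries thus lay below the lowest WT library, replicate 2, which was the WT library nearest to them. Such a pattern, with every Chd8L+/- library below every WT library, was seen in 0.273% of the 12808 genes tested, those averaging 10 normalized counts or more (without WT replicate 2 in 7.71%). Since Ang was chosen with this contrast known, the percentage is given for scale and nothing is read from it. The means were 229.8 ± 49.5 (SD, n = 5) and 121 ± 29.1 (SD, n = 7). On the log2(normalized count + 1) scale this was a fold change of -0.93 ± 0.20 (standard error), and of -1.02 without WT replicate 2.

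Rnase4 differed little between the genotypes, although its first exons overlap those of Ang. The WT libraries had 1037, 919, 1216, 1402 and 1547 normalized counts in replicate order. The Chd8L+/- libraries ran from 766 through a median of 1097 to 1292. The groups overlapped widely, and only 2 of the 7 Chd8L+/- libraries lay below the lowest WT library. The means were 1224 ± 257 (SD, n = 5) and 1066 ± 192 (SD, n = 7). The log2 fold change, -0.20 ± 0.16 (standard error), was little larger than its error. Leaving out WT replicate 2 gave -0.29, WT replicate 5, the highest library, -0.10, and Chd8L+/- replicate 3, the lowest library, -0.12.

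Ang4 had both the largest difference of the 3 and the widest spread. The WT libraries had 14630, 9378, 37539, 33247 and 35382 normalized counts in replicate order, so WT replicates 1 and 2 stood well below the other 3. The Chd8L+/- libraries ran from 2751 through a median of 4613 to 24992. Of these, 5 of 7 lay below the lowest WT library and all 7 below the WT median. The exceptions were replicate 6, at 24992, and replicate 1, at 12919, which lay within the WT range. The means were 26035 ± 13031 (SD, n = 5) and 8256 ± 8150.2 (SD, n = 7). The log2 fold change was -1.93 ± 0.54 (standard error), and -2.24 without WT replicate 2. Without Chd8L+/- replicate 6 it was -2.27. In bulk RNA, fewer cells that make a transcript and less of it per cell cannot be told apart, and this holds for all the genes below.

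**Figure D2:**
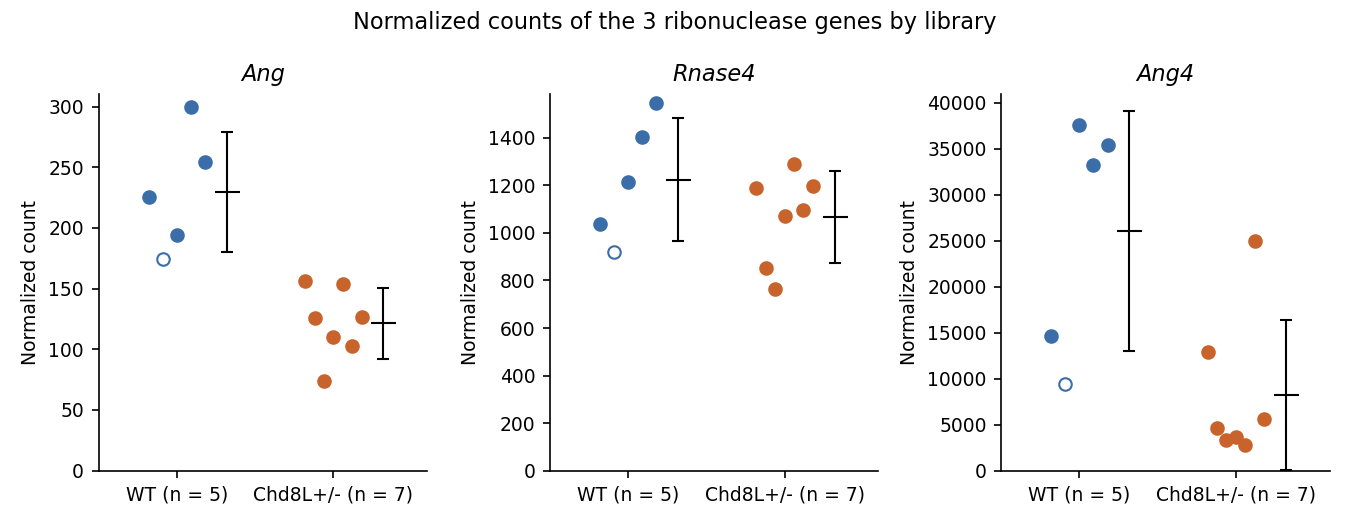
Normalized counts of Ang, Rnase4 and Ang4 (linear axes from 0, a scale per gene), with 1 point per library, WT in blue (n = 5, replicate 2 as the open point) and Chd8L+/- in orange (n = 7); horizontal ticks and bars are the mean ± SD. The Ang groups do not overlap, those of Rnase4 overlap widely, and 2 Chd8L+/- libraries reach the WT range of Ang4, at 12919 and 24992.

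Ordered by log2 fold change from the lowest among the 12808 genes, Ang4 stood at rank 74, Ang at rank 394 and Rnase4 at rank 3660. The median of all tested genes was 0.01. These ranks describe the genes as they were chosen and are not a test.

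The share of the Ang and Rnase4 pair that was Rnase4 differed by library in the same way. The ratio of Rnase4 to Ang normalized counts was 4.59, 5.27, 6.25, 4.68 and 6.08 in the WT libraries in replicate order. It ran from 6.74 through a median of 9.48 to 10.7 in the Chd8L+/- libraries. The groups did not overlap, as those of Ang alone did not. How often the ratio of other gene pairs separates the groups was not computed, so nothing is read from this. WT replicate 2, at 5.27, lay in the middle of the WT libraries and not with the Chd8L+/- ones. On the log2 scale the ratio was 2.41 ± 0.21 (SD, n = 5) and 3.14 ± 0.24 (SD, n = 7), a difference of 0.73, which stayed between 0.68 and 0.80 with each library left out in turn. Because the ratio is built from the contrast that chose the genes, it is described and not tested. Reads from the exon bases in common, which may have gone to either gene, are part of it.

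**Figure D3:**
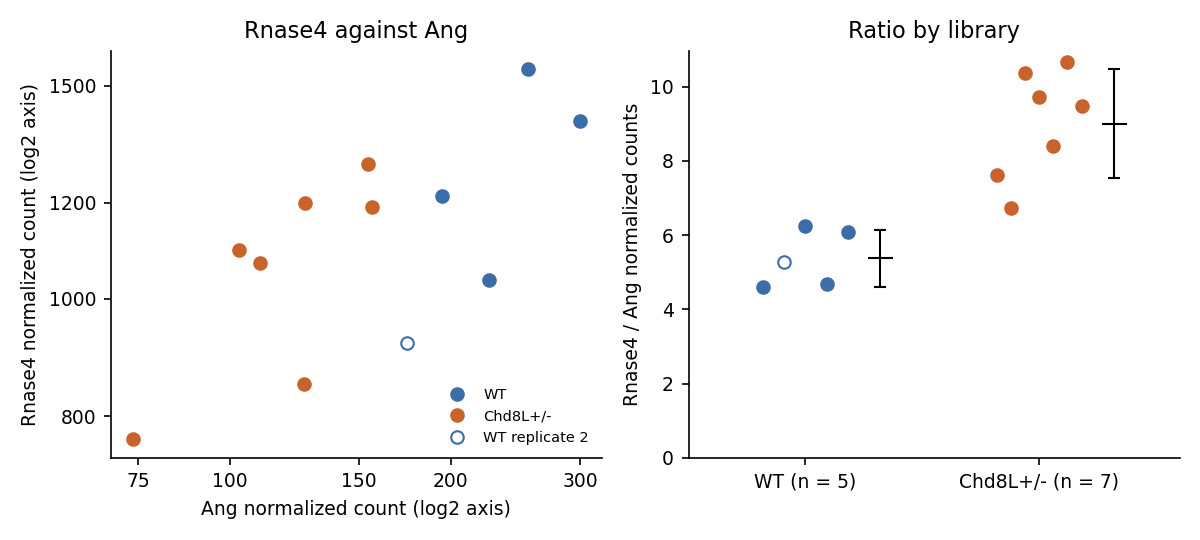
Left, Rnase4 against Ang normalized counts on log2 axes, with 1 point per library; right, the ratio of Rnase4 to Ang per library on a linear axis from 0, with the mean ± SD. WT libraries are blue (replicate 2 open) and Chd8L+/- libraries orange; at a like level of Rnase4 the Chd8L+/- points lie to the left, and the ratio spans 4.59 to 6.25 in WT and 6.74 to 10.7 in Chd8L+/- libraries.

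Within the genotypes, Ang and Rnase4 varied together. With each genotype's mean removed from log2(normalized count + 1), so that the chosen contrast was left out, their Pearson correlation over the 12 libraries was 0.76 (Spearman 0.80). It was 0.71 without WT replicate 2, between 0.63 and 0.85 with any 1 library left out, and 0.49 without the 2 libraries farthest from the median of Ang, Chd8L+/- replicate 3 and WT replicate 2. Under quantile normalization it was 0.55. Among the 12807 other tested genes, Rnase4 ranked 91 by likeness to Ang, and Ang ranked 77 by likeness to Rnase4. Ang4 followed them less closely: its correlation was 0.24 with Ang and 0.47 with Rnase4, and these came to -0.19 and 0.21 without the same 2 libraries. With any 1 library left out they lay between 0.07 and 0.49 and between 0.34 and 0.68. Ang4 ranked 3824 by likeness to Ang and 1558 by likeness to Rnase4. All of these points share library depth and size factor, and the exon bases in common are part of the first pair.

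The genes most like each of the 3 in this within-genotype pattern over 12 libraries were different genes. For Ang they were Lect2, a secreted factor best known from liver (Pearson correlation 0.88), Rnf41, a ubiquitin ligase (0.87), Cldn23, a claudin (0.87), Phlda1 (0.87) and Cln3, a lysosomal membrane protein (0.86). For Rnase4 they were Tm2d2 (0.91), Dcaf15, a substrate receptor of a ubiquitin ligase (0.89), Cd34, a surface protein of endothelial and progenitor cells (0.89), Cmtm3 (0.88) and Mylpf, a myosin light chain (0.88). For Ang4 they were Ang3, another rodent angiogenin (0.99), Clps, the cofactor of pancreatic lipase (0.96), AI593442 (0.95), Fam171a1 (0.94) and Pnliprp2, a lipase (0.93). A correlation over 0.8 was reached by 32 genes with Ang, 35 with Rnase4 and 177 with Ang4, which is 0.25%, 0.27% and 1.38% of the genes compared, so close partners were more numerous for Ang4. For the genotype difference of these 15 genes, the adjusted p-values in limma lay between 0.121 and 0.869.

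The whole table gives the scale for the genes that follow. Where 3 genes of a list or 4 neighbours are named, they are those with the smallest p in these libraries. Limma with Benjamini-Hochberg adjustment over 12808 genes called 3 genes at an adjusted p of 0.05 or less, 0.0234% of them, while 24.3% had an unadjusted p of 0.05 or less. EdgeR on the recovered reads called 0.039%, and DESeq2 called 6.44% of 12584 genes (4.61% lower and 1.84% higher). Without WT replicate 2, limma called 27.6%. A call therefore depended strongly on that library and on the tool. WT replicate 2 was set apart for lying among the Chd8L+/- libraries, so leaving it out favours a wider contrast. Smaller p-values without it are therefore not added evidence of a difference. For the genes named below, means are given with their SD for the 5 WT and then the 7 Chd8L+/- libraries, and the log2 fold change (Chd8L+/- minus WT) with its standard error.

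Of the other ribonuclease A family genes, 22 were looked up and 5 had a row of that name, of which 3 had a mean of at least 10. Limma called 0 of these 3, edgeR 0 and DESeq2 1, and 1 had an unadjusted p of 0.05 or less. That gene was Ang3. It averaged 477 ± 245 and 137 ± 125 normalized counts, or -1.98 ± 0.51 on the log2 scale. Its adjusted p was 0.121 in limma, 0.0172 in DESeq2 and 0.00673 in limma without WT replicate 2. Its library order was close to that of Ang4, with 274, 165, 730.0, 577 and 641 normalized counts in the WT libraries and 386 in Chd8L+/- replicate 6. The row named Ang3 could not be placed in the annotation used, so the stretches it has in common with Ang4 were not computed, and reads of one may have been counted for the other.

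Rnase1, the pancreatic-type ribonuclease, and Rnase6, an antimicrobial ribonuclease of immune and epithelial cells, lie 53.8 kb and 32.8 kb beyond the start of Ang. Rnase1 averaged 297 ± 109.9 and 243 ± 265 normalized counts, a log2 difference of -0.72 ± 0.49 (limma adjusted p = 0.373) that came to -1.10 without Chd8L+/- replicate 6. Its highest library, at 826, was a Chd8L+/- library, while 4 others lay below every WT library. Rnase6 was near the lower limit of detection, with 11.6 ± 6.22 and 18.5 ± 11.7 normalized counts and a log2 difference of 0.71 ± 0.56 (limma adjusted p = 0.442) that came to 0.16 without WT replicate 5. Ang6 and Ear2 were too low to be tested, with 5.97 ± 3.44 and 11.8 ± 8.62 normalized counts in WT and 2.01 ± 1.77 and 5.02 ± 10.3 in Chd8L+/- libraries.

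The inhibitor and the proposed receptors of angiogenin were all measured, and limma and DESeq2 called 0 of 5, as did edgeR, with 2 at or below an unadjusted p of 0.05. Rnh1, the ribonuclease inhibitor, averaged 2080.5 ± 303 and 1664 ± 165 normalized counts, a log2 difference of -0.31 ± 0.12 (limma adjusted p = 0.145, and 0.0125 without WT replicate 2). Egfr, the epidermal growth factor receptor, proposed as a receptor of angiogenin, averaged 264 ± 78.4 and 392 ± 93.5, a log2 difference of 0.59 ± 0.20 (limma adjusted p = 0.128, and 0.0154 without WT replicate 2). Plxnb2, the receptor plexin B2, averaged 8009 ± 2609 and 7122 ± 1394 normalized counts, a log2 difference of -0.13 ± 0.21 whose sign turned under quantile normalization, with the surrogate variable and without WT replicate 4. Sdc4, a heparan sulfate proteoglycan, had a log2 difference of -0.30 ± 0.15 (limma adjusted p = 0.23). Actn2, a muscle actinin, was barely detected, with 9.68 ± 7.75 normalized counts in WT and a log2 difference of 0.63 ± 0.73, whose sign turned without WT replicate 5.

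Of the 3 transcription factors linked to gene control at the locus and reported here, limma, edgeR and DESeq2 called 0, with 0 at or below an unadjusted p of 0.05. Ctcf, the insulator protein, differed by 0.19 ± 0.12 on the log2 scale, Hif1a, the hypoxia-inducible factor, by -0.33 ± 0.21, and Hnf4a, a nuclear receptor of enterocytes, by -0.06 ± 0.19, with adjusted p-values in limma between 0.329 and 0.879. With the surrogate variable the signs of Hif1a and Hnf4a turned, and that of Hnf4a also under quantile normalization and with the replicate block.

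Genes of the processes that angiogenin acts in were then counted. Of 10 genes for the formation of tRNA fragments and protection from it, limma, edgeR and DESeq2 called 0, while 0 lower and 3 higher had an unadjusted p of 0.05 or less. Their median log2 difference was 0.12, beside 0.01 for all genes. The 3 were Nsun2, a tRNA methyltransferase (log2 difference 0.59 ± 0.21), Elac2, which trims tRNA ends (0.62 ± 0.24), and G3bp1, a stress granule protein (0.60 ± 0.24). Their adjusted p-values from limma were 0.136, 0.147 and 0.155 over all libraries, and 0.00423, 0.0116 and 0.0071 without WT replicate 2.

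Of 15 tested genes of the RNA polymerase I machinery, which transcribes the ribosomal RNA genes that nuclear angiogenin is known to stimulate, limma, edgeR and DESeq2 called 0, with 1 lower and 4 higher at or below an unadjusted p of 0.05 and a median of 0.25. The 3 with the smallest p were Taf1c (0.45 ± 0.16), Polr1a, the largest subunit (0.78 ± 0.32), and Ttf1, the termination factor (0.28 ± 0.12). Of 26 other ribonucleases, limma and edgeR called 0 and DESeq2 1, with 2 lower and 8 higher at or below an unadjusted p of 0.05 and a median of 0.23. Xrn2, a nuclear exonuclease, differed by 0.34 ± 0.11 (adjusted p = 0.124 in limma and 0.0489 in DESeq2). Dis3 and Xrn1, other exonucleases, differed by 1.27 ± 0.41 and 0.62 ± 0.21. Over all 6 lists limma called 0 genes, edgeR 0 and DESeq2 2, and without WT replicate 2 limma called 20, of which 2 were lower and 18 higher, where the same fit called 27.6% of all genes, 13.6% lower and 14% higher.

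**Figure D4:**
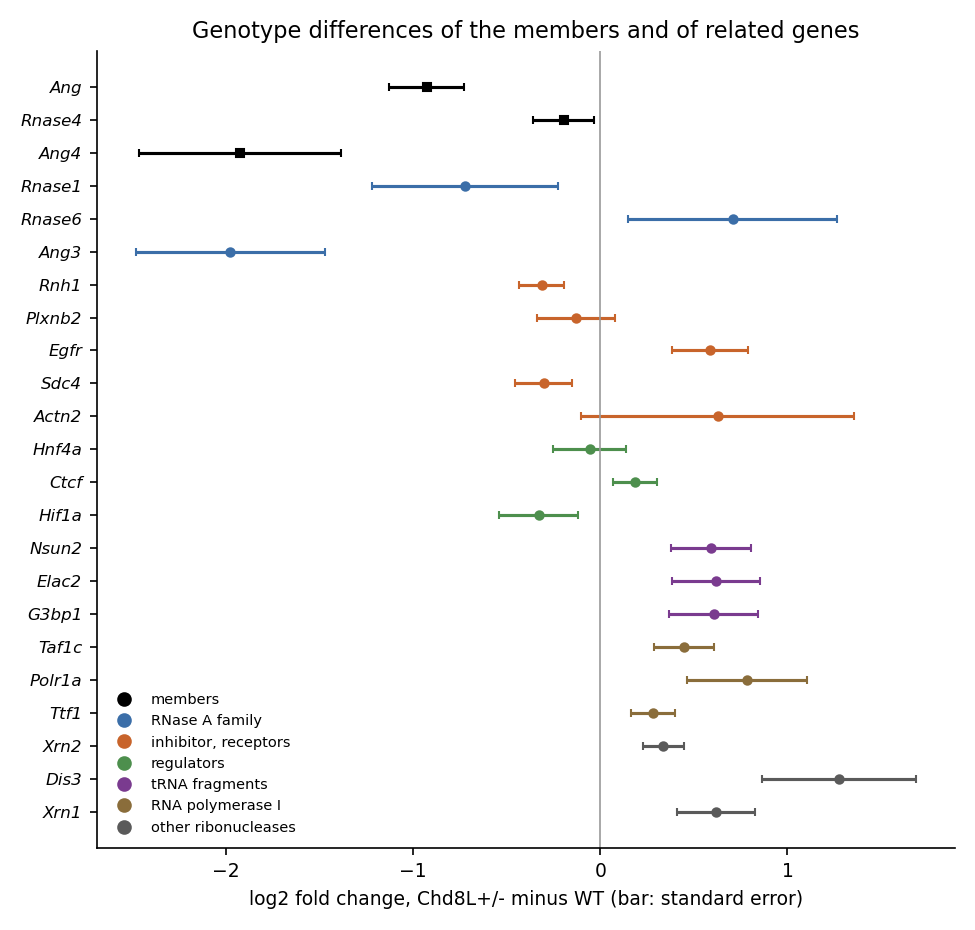
Log2 fold change between genotypes (Chd8L+/- minus WT, on the log2(normalized count + 1) scale) with its standard error for Ang, Rnase4 and Ang4 (black squares, members) and for the related genes named in the text (circles, coloured by list). Ang3, at -1.98, lies next to Ang4, at -1.93, and the tRNA, RNA polymerase I and other ribonuclease genes shown, the 3 with the smallest p of each list, lie above 0.

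Ang4 was also set beside markers of the cell types that the cell isolate could hold, since it is known as a product of Paneth and goblet cells. Its level followed neither of these lists within the genotypes. With genotype means removed, its Pearson correlation over 12 libraries with the mean of 17 Paneth cell markers was -0.04 (Spearman -0.22), and with the mean of 16 goblet cell markers it was 0.07 (Spearman -0.01). With the mean of 23 tested markers of tuft cells, the chemosensory cells that release interleukin 25, it was 0.86 (Spearman 0.89), and 0.87 both without WT replicate 2 and without the 2 libraries farthest from the median. With the mean of 9 tested stromal and endothelial markers it was -0.72 (Spearman -0.71), -0.65 without WT replicate 2 and -0.57 without the 2 farthest libraries. Of the other marker lists, the strongest correlations with Ang4 were 0.66 for 3 hepatocyte and -0.53 for 14 lymphocyte markers. Without the 2 farthest libraries of each list these were 0.49 and -0.38. For the 2 pancreatic markers the correlation was -0.46, and it grew to -0.73 without their 2 farthest libraries. For Ang and Rnase4 the correlation with the tuft list was 0.40 and 0.53, but 0.21 and 0.32 without WT replicate 2 and -0.25 and 0.02 without the 2 farthest libraries. With the stromal list it was -0.01 and 0.03, and 0.25 and 0.38 without WT replicate 2. These correlations are descriptions, and the points share the composition and the depth of each library.

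The tuft markers were also lower in Chd8L+/- libraries on average. Of 23 tested, 23 had a negative log2 difference, with a median of -1.77 (-2.28 without WT replicate 2) beside 0.01 for all genes; limma called 0, DESeq2 18 and edgeR 0, and 22 had an unadjusted p of 0.05 or less. The summed normalized count of the 24 markers ran from 5581 to 45870.4 in WT and from 3738 to 19567 in Chd8L+/- libraries, and WT replicate 2 had the lowest WT value. The study described tuft cell genes as lower in these same mice, so this list is not independent evidence of its direction. By immunostaining the study also counted fewer tuft cells in the small intestine of Chd8L+/- mice, but not in the colon. It proposed that the lower marker RNA came from fewer tuft cells, which the RNA values here cannot show. Gnat3, the taste G protein of tuft cells, averaged 181 ± 141 and 27.1 ± 8.45 normalized counts, a log2 difference of -2.23 ± 0.54 (adjusted p = 0.121 in limma and 4.66e-05 in DESeq2). Lrmp and Matk differed by -1.77 ± 0.48 and -2.19 ± 0.61. Chd8L+/- replicate 6, the library with the highest Ang4 of its genotype, also had the highest mean of the tuft markers there, 8.70 on the log2 scale beside 6.26 to 7.90 in the other 6. The same library had the lowest mean of the distal small intestine markers, 6.92, beside 8.64 to 11.28 in all other libraries of both genotypes. Whether its Ang4 level goes with either list was not tested.

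By the medians of their RNA, Paneth and goblet markers were closer between the genotypes than tuft markers. By staining, however, the study counted fewer goblet cells in the small intestine of Chd8L+/- mice, though not in the colon. Of 17 Paneth markers, 10 had a negative and 7 a positive log2 difference, with a median of -0.24 and sums of 138710 to 262339 normalized counts in WT and 95206 to 242297 in Chd8L+/- libraries; limma and edgeR called 0 and DESeq2 1, with 4 at or below an unadjusted p of 0.05. The 3 with the smallest p were Mptx2, a mucosal pentraxin (-1.17 ± 0.35), Defa26, a defensin (-1.05 ± 0.35), and Mptx1 (-2.40 ± 0.90). Of 16 goblet markers, 12 had a negative and 4 a positive log2 difference, with a median of -0.18 and sums of 104770 to 252956 and of 98199 to 185665; limma and edgeR called 0 and DESeq2 2, with 4 at or below an unadjusted p of 0.05. Among them Spink4 differed by -1.25 ± 0.37, Clca1, a secreted mucus protein, by -0.94 ± 0.33, and Ccl9, a chemokine, by -0.53 ± 0.23. The defining markers Lyz1, Mmp7, Tff3 and Fcgbp had rows above 0 in every library, and Muc2 had no row of that name.

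**Figure D5:**
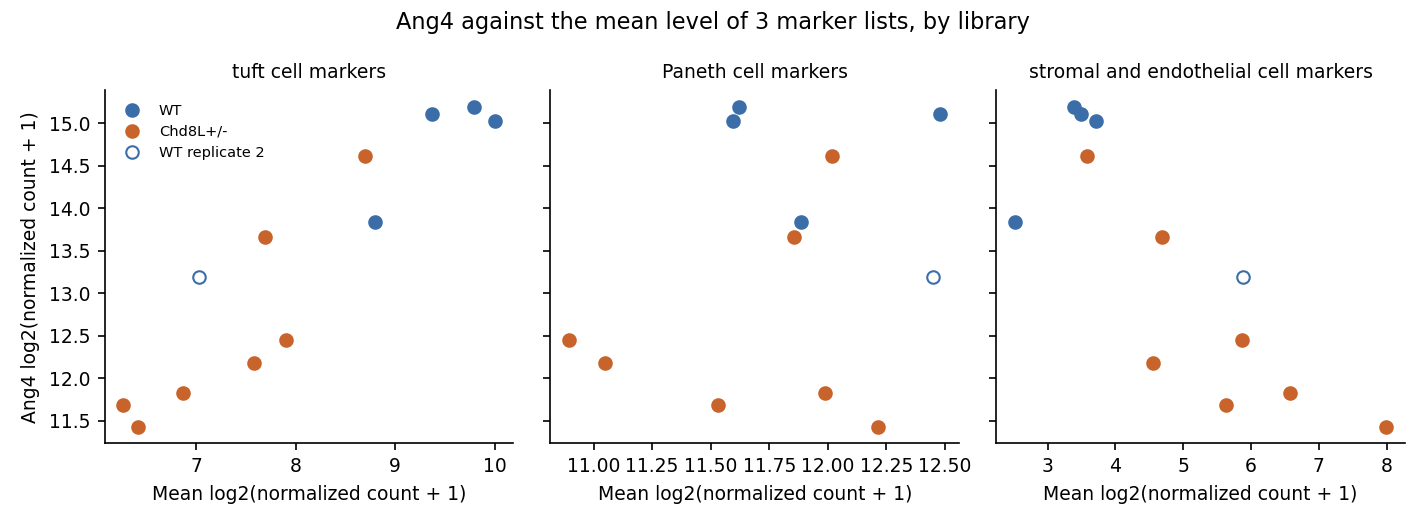
Ang4 against the mean of 3 marker lists, both as log2(normalized count + 1), with 1 point per library (WT blue, replicate 2 open; Chd8L+/- orange). Ang4 is high where the tuft markers are high, shows no ordering with the Paneth markers (correlation within genotypes -0.04) and is low where the stromal markers are high (correlation within genotypes -0.72).

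Of the lists for cells outside the epithelium, those of stromal and endothelial and of myeloid cells had positive medians, and that of lymphocytes a negative one. Of the 13 stromal and endothelial markers 9 were tested, and 9 of these 9 had a positive log2 difference, with a median of 2.03; limma and edgeR called 0 and DESeq2 2, with 5 at or below an unadjusted p of 0.05. Their sum over the whole list was 157 to 689 normalized counts in WT, with WT replicate 2 highest and the others at most 299.5, and 247 to 2610 in Chd8L+/- libraries. Of the 13, Col1a2, Col3a1, Col6a1, Lum and Pdgfra were at 0 in at least 1 WT library and Lum in at least 1 Chd8L+/- library. Col3a1, a fibrillar collagen, averaged 19.1 ± 26.1 and 94.1 ± 99.3 normalized counts.

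The 13 myeloid markers had a positive log2 difference in 13 of 13 cases, with a median of 0.63 and sums of 1432 to 3655 in WT and of 2091 to 4535 normalized counts in Chd8L+/- libraries. The highest WT sum was that of WT replicate 2, and the other WT libraries reached at most 1734, below every Chd8L+/- library. The groups thus separated only with WT replicate 2 left out. Without it, 7.71% of tested genes had every Chd8L+/- library below every WT library. The share above was not computed, so nothing is read from this. Limma and edgeR called 0 and DESeq2 1, with 4 at or below an unadjusted p of 0.05. The 13 enterocyte markers, by contrast, had a negative one in 12 of 13 cases, with a median of -0.53 and sums of 417437 to 931180 in WT and 351015 to 784719 in Chd8L+/- libraries; limma and edgeR called 0 and DESeq2 3, with 3 at or below an unadjusted p of 0.05. Enterocyte markers thus exceeded those of stroma by far in every library. The remaining lists had smaller medians, from the -0.32 of 9 genes of the proximal small intestine to the 0.43 of 10 crypt stem cell genes. The median was -0.10 for 16 enteroendocrine, -0.23 for 14 lymphocyte, -0.30 for 2 pancreatic and -0.05 for 3 hepatocyte genes, -0.19 for 8 genes of the distal small intestine and -0.10 for 6 of the colon. Of these lists limma and edgeR called 0 genes, and DESeq2 called 1 enteroendocrine, 1 distal and 2 colon genes. At or below an unadjusted p of 0.05 were 4 enteroendocrine, 2 stem cell, 1 hepatocyte, 1 proximal, 1 distal and 1 colon gene. Only 2 of 11 pancreatic and 3 of 6 hepatocyte markers had a row of their name, so these 2 lists say little about such cells. The part of all these cell types in the differences of Ang, Rnase4 and Ang4 was not tested.

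The genes around Ang on chromosome 14 had differences of both signs. Beside Rnase4, of 13 measured genes that start within 500 kb of it, 12 were tested; limma called 0, edgeR 0 and DESeq2 3, and 5 lay at or below an unadjusted p of 0.05. The 4 with the smallest p were Klhl33, with 4.88 ± 4.47 and 19.6 ± 5.35 normalized counts and a log2 difference of 2.04 ± 0.42 (limma adjusted p = 0.121), Rpph1, Tep1 and Pnp2. Rpph1, the RNA of ribonuclease P, which trims the start of tRNAs, averaged 70.2 ± 32.3 and 25.1 ± 9.07, a log2 difference of -1.37 ± 0.34 (adjusted p = 0.121 in limma and 0.00491 in DESeq2). It carries no poly(A) tail as a rule and overlaps Ccnb1ip1 in the annotation, so its counts are uncertain. Tep1, a telomerase-associated protein, differed by 0.35 ± 0.12, and Pnp2, a purine nucleoside phosphorylase, by -0.58 ± 0.22. Apart from Rnase4, the nearest measured genes on either side by their starts were Pnp2, which starts 135 kb before Ang, and Rnase6.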

How the data were processed

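Poly(A) RNA of gut epithelial cells from 5 WT and 7 Chd8L+/- mice was sequenced, mapped by the authors to mm10 with Tophat2 (2.0.12) and passed through the DESeq2 pipeline. The signal deposited per gene and library is a read count divided by a size factor, by the authors. Counting program, annotation, strand and gene filter are not given in the sources used here. Each value was a whole multiple of 1 read of its library (100% within a tolerance of 0.001), so reads were recovered. All 12 columns matched a sample by library name. Of 14244 rows, 21 have a name turned into a date and 4 a repeated name; none is named.

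The 3 genes, the gene lists and the alternatives were chosen with earlier results of these data known. Named are the 3 genes, Chd8, the measured genes of 3 lists (ribonuclease A family, inhibitor and receptors, regulators), the 3 genes with the smallest p of each other list described, the 5 genes most like each of the 3 genes and 4 neighbours of Ang. Some items are not reported here. Genotype differences of Ang, Rnase4 and Ang4 are described without a test. Other genes were tested with limma 3.58.1 (R 4.3.3; lmFit, eBayes with trend, two-sided) on log2(value + 1) for the 12808 genes with a mean of at least 10, with Benjamini-Hochberg adjustment over all of them and a threshold of 0.05. Fold changes on this scale understate low genes. A p-value sets the genotype difference against the variation between mice of the same genotype.

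Each of these was changed in turn: the pseudocount (0.5 or 5), the filter (none, or a minimum of 10 in all libraries), the scaling (quantile or TMM), the tool (edgeR 4.0.16 or DESeq2 1.42.0 on recovered reads), a block (replicate number, or first letter of the library name), a surrogate variable (1, from sva 3.50.0) and the libraries (each left out). EdgeR and DESeq2 without WT replicate 2 were added after seeing the data. Fits were tested on simulated data. Positions came from GENCODE M21 (GRCm38; 14050 names matched by symbol and 91 by synonym), promoters from RefSeq. Markers of enteroendocrine, stem, lymphoid, pancreatic and liver cells and of gut regions were also counted.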

Additional observations from a re-analysis of the deposited data

Results flagged for a closer look

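In the 42 sets of 5 or 7 libraries examined for a library far from the others of its genotype, 3 were found, where chance gives about 2.1. Rnase6 in WT replicate 5 was at 1.17 on the log2(normalized count + 1) scale, beside 3.54 to 4.16 in the other WT libraries, a normalized count of 1.25. Hif1a in WT replicate 2 was at 10.3 on that scale, beside 10.7 to 10.9. The mean of the myeloid cell markers in WT replicate 2 was 6.55, beside 5.16 to 5.47, and this is the library with the lowest WT values of Ang, Rnase4 and Ang4. No value of those 3 genes themselves stood apart in this way.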

How the results depend on the processing

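The genotype differences of Ang, Rnase4 and Ang4 kept their sign under all 23 alternatives. For Ang the log2 fold change lay between -1.02 and -0.67. For Rnase4 it lay between -0.29 and -0.10 with a library left out, and came to -0.0921 under quantile normalization and -0.000368 with 1 surrogate variable. For Ang4 it lay between -2.32 (replicate block) and -0.90 (surrogate variable). The surrogate variable had a squared correlation of 0.403 with genotype, so it takes up part of that difference by construction. The ratio of Rnase4 to Ang differed by 0.68 to 0.93 on the log2 scale. The within-genotype correlation of Ang and Rnase4 moved to 0.55 under quantile normalization; the cause was not tested.

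Counts of called genes depended on the setting, and the cause was not tested. Over the whole table limma called 3 genes, edgeR 5, DESeq2 811 (580 lower, 231 higher), the fit with the letter block 451, and fits with a library left out 0 to 3533. The highest of these was without WT replicate 2, where edgeR called 3369 and DESeq2 4112; without WT replicates 1 or 5 or Chd8L+/- replicates 1, 2, 3, 4, 5 or 7 it was 0, without WT replicate 4 it was 1, and without Chd8L+/- replicate 6 it was 8. Of the pathway genes limma called 0, DESeq2 2, the letter block 2 and fits with a library left out 0 to 20; without WT replicate 2 edgeR called 20 and DESeq2 20. Of the marker genes the counts were 0, 31, 24 and 0 to 49, and 52 and 61 without WT replicate 2. Of the genes near Ang they were 0, 3, 1 and 0 to 4.

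With the replicate number as a block the whole table gave 0 calls. The values gave little sign that the numbers pair the mice, though they cannot settle it. Deviations of same-numbered libraries correlated between -0.34 and 0.19, above 0.1 in 1 of 5 pairs, and 1 of 5 WT libraries was closest to its own number.

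Of the 37 other genes followed through these settings, which are not all of the genes named, 4 changed sign under some setting, none of them past the threshold there. Plxnb2 came to 0.10 under quantile normalization, 0.33 with the surrogate variable and 0.027 without WT replicate 4, and lay between -0.30 and 0.027 with a library left out. Hnf4a came to 0.26 under quantile normalization, 0.0669 with the replicate block and 0.26 with the surrogate variable. Hif1a came to 0.0887 with the surrogate variable and Actn2 to -0.0876 without WT replicate 5, with up to 1.01 when another library was left out. At this depth genes such as Klhl33, Ang6, Actn2 and Rnase6 rest on few reads.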
